A study of Mus musculus with 2 samples.

Results

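The genes described are 10 members of the bone morphogenetic protein (BMP) pathway, picked by symbol from the 32285 features of the count tables. They are the ligands Bmp2, Bmp4 and Bmp7, the secreted BMP-binding proteins Grem1 and Bmper, the type I receptors Bmpr1a and Bmpr1b, the inhibitory Smad gene Smad6, and the response genes Id1 and Id3. Their levels were read in single cells of mouse kidney at postnatal day 0, in 2 libraries (replicate 1 and replicate 2), and compared between cell types of the kidney. Both libraries carry the genotype Rbpj c/+ ; Foxd1cre/+, read here as 1 conditional copy of Rbpj, the DNA-binding partner of Notch receptors, with Cre driven by Foxd1, a gene of stromal progenitors. They form 1 group, with n = 2, with no other genotype analysed here. The Foxd1 lineage, which includes stroma, pericytes and mesangial cells, therefore holds cells in which Cre could have acted. Whether Cre acted in other classes was not tested, and no effect of the genotype on the BMP genes can be tested. Nothing in the labels says whether a library is 1 animal or a pool. The p-values rest only on how class sums vary between these 2 libraries, after a difference shared by all classes of a library is fitted. That variation may be technical.

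BMPs are secreted dimers of the transforming growth factor family. They bind type I and type II receptor kinases, which phosphorylate Smad1, Smad5 and Smad9; these enter the nucleus with Smad4 and switch on genes such as the Id genes, whose products block basic helix-loop-helix transcription factors, and Smad6, which feeds back on the pathway. Antagonists such as gremlin and noggin hold the ligands away from their receptors. In the developing kidney, Bmp7 is known for keeping nephron progenitors alive, Bmp4 for restraining ureteric branching, and gremlin for relieving that restraint.

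Cells were barcodes holding 3000 or more unique molecular identifiers (UMIs) and 500 or more genes, with mitochondrial UMIs making up no more than 20%, and numbered 5529 in replicate 1 and 4206 in replicate 2, with median depths of 15016 and 20007.5 UMIs. After 245 and 142 likely doublets were removed, 3945 and 3045 cells (74.7% and 74.9%) passed a gate for 1 of 18 marker lists, none of which holds a BMP pathway gene. The 6 podocyte markers, for example, summed to 33485 and 32761 CPM in podocytes and to at most 368 CPM in another tested class. Other lists were less sharp. The 6 collecting duct markers summed to 4551 and 4041 CPM in collecting duct, 437 and 281 CPM in distal or connecting tubule and 406 and 226 CPM in intercalated cells. The 6 early nephron markers summed to 1981 and 1919 CPM in early nephron and 239 and 140 CPM in distal or connecting tubule. A class name stands for the cells that passed that gate, "podocyte" for podocyte-like cells and so on. Tests covered the 16 classes that reached 20 cells in each library, and these held 22 to 685 cells each. Levels are given as CPM, the UMIs of a gene divided by all UMIs of the class and scaled to 1000000, in replicate 1 and then replicate 2. The libraries shared 6 barcodes among these cells. The share of free RNA, estimated from haemoglobin UMIs alone, was 33% and 16.7% of UMIs in endothelium and 20.3% and 0.64% in pericytes or mesangial cells. Tubule markers in endothelium were below that estimate. The 5 loop of Henle markers summed to 13.2 and 18.6 CPM in endothelium, where the estimate would bring 137 and 87.1 CPM, and allow a share of at most 3.2% and 3.58%. The 8 proximal tubule markers summed to 54.6 and 55.1 CPM and allow at most 5.63% and 4.76%. The 14 dissociation stress genes summed to 513 and 455 CPM in endothelium and 118 and 126 CPM in nephron progenitors, the highest and lowest class means. The part of free RNA or stress in the differences was not tested. The subtraction of free RNA tried as an alternative uses the haemoglobin estimate. It therefore takes more than tubule markers allow from endothelium and, in replicate 1, from pericytes or mesangial cells.

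Each class was set against the mean of the other classes with edgeR's quasi-likelihood test, and adjusted p-values (Benjamini-Hochberg, threshold 0.05) cover the 16441 tested genes that served in no gate. Of the 160 tests of the 10 genes, 88 were called, 65 higher and 23 lower. Over all genes 36.6% of such tests were called, 25.4% higher and 11.3% lower. The median log2 difference of the 10 genes lay between -2.93 in macrophages and 1.73 in collecting duct, and that of all genes between -1.49 in the erythroid class and 0.22 in loop of Henle. Early nephron had 8 of the 10 genes higher and none lower (median log2 difference 1.63, with 44.5% of all genes called), collecting duct 7 and none (36.4%), and nephron progenitors 6 and none (0.79, 46%). Macrophages had 1 higher and 5 lower (38.1%). A gene with no count in some class cannot be called lower elsewhere by this test, because the mean it is held against has no lower limit. That was so for 7572 of the 16441 genes and for 5 of the 10 described here (Bmp2, Bmp4, Grem1, Bmper and Smad6). The erythroid class was the one at 0 for Bmp2, Bmp4 and Smad6. For these 3 genes the values printed for a class against the other classes come from a fit without the erythroid class, chosen after seeing the data, in which 99 of 150 tests of the 10 genes and 44.8% of all tests were called, while direct comparisons use the fit over all 16 classes. The counts of lower genes per class above are from the 16-class fit and so leave out these 5 genes. Without the erythroid class, Bmp4 was called lower in collecting duct and Bmp2 in nephron progenitors. Bmp4 and Smad6 were then called lower in macrophages as well.

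Bmp2, a ligand best known for bone and heart formation, was highest in the early nephron class, the cells gated by Lhx1, Wnt4, Fgf8 and other genes of the first nephron structures. It reached 83.6 and 58.5 CPM there, from 1059 and 454 UMIs. Macrophages followed with 30.9 and 15.1 CPM, endothelium with 10.7 and 23.9 CPM, ureteric tip with 14.2 and 18.9 CPM and intercalated cells with 9.78 and 11.3 CPM. The libraries of macrophages, endothelium and tip overlapped, so their order is not resolved, whereas both early nephron values lay above every other class. In the other 11 classes Bmp2 stayed at or below 5.38 CPM. The gene was higher than in the other classes in early nephron (log2 difference 4.62 ± 0.24 SE, adjusted p = 2.7e-13), endothelium (2.51 ± 0.29 SE, adjusted p = 1.4e-07), macrophages (3.05 ± 0.52 SE, adjusted p = 3.2e-05), tip (2.26 ± 0.40 SE, adjusted p = 8.0e-05) and intercalated cells (1.75 ± 0.65 SE, adjusted p = 0.037). In the fit over all 16 classes the last of these lost its call when doublets were kept or free RNA was subtracted. It was lower in nephron progenitors, podocytes, proximal tubule and Foxd1-positive stroma, of which proximal tubule was lowest with 4 and 0 UMIs (-4.64 ± 0.76 SE, adjusted p = 1.3e-05). Bmp2 lies at chr2:133552159-133562885, plus strand (GRCm38, GENCODE M21, as for the genes below).

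Cells thinned to 3000 UMIs show how widely Bmp2 was spread within the early nephron class. A Bmp2 UMI was present in 12.8% (95% interval 9.05 to 17.5) and 11.9% (6.29 to 19.8) of them, against 2.48% and 6.91% of endothelial cells and 8.11% and 2.17% of macrophages. Unthinned, the early nephron shares were 41.9% and 53.5% at median depths of 26568 and 39778 UMIs. These exact binomial intervals cover counting error only.

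Bmp4 (chr14:46383520-46390669, minus strand) was found in nephron epithelium and stroma. Early nephron held 103 and 66.2 CPM and Penk-positive stroma (stroma with Penk but no Foxd1) 63.1 and 87.6 CPM, and these overlapped. Other stroma, with neither gene, followed with 58.1 and 62.3 CPM, podocytes with 52.3 and 48.6 CPM, proximal tubule with 47.1 and 44.4 CPM, loop of Henle with 35.1 and 32.4 CPM and Foxd1-positive stroma with 39.6 and 27.6 CPM. Those 7 classes were the ones called higher, led by early nephron (log2 difference 2.63 ± 0.20 SE, adjusted p = 1.6e-10) and Penk-positive stroma (2.52 ± 0.22 SE, adjusted p = 2.9e-09). The collecting system was at the other end: 10.3 and 3.71 CPM in ureteric tip, 3.56 and 4.83 CPM in intercalated cells and 1.09 and 1.45 CPM in collecting duct, all 3 called lower (collecting duct -3.77 ± 0.87 SE, adjusted p = 0.0011). Macrophages, with 0 and 1 UMIs, were the fourth class called lower (-5.27 ± 1.02 SE, adjusted p = 0.00017). Bmp4 was present in 21.5% and 14.9% of thinned early nephron cells and 14.7% and 19.6% of Penk-positive stroma. Gm15217 and Gm15222 overlap Bmp4 on the opposite strand, with 727 and 1944 UMIs in the cells. Whether the counting used strand is not given in the sources used here, so their reads and those of Bmp4 cannot be told apart with certainty.

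Bmp7 (chr2:172868012-172940321, minus strand) was an epithelial gene. Podocytes held 198 and 216 CPM and ureteric tip 145 and 139 CPM, each apart from every other class in both libraries. Early nephron (62.5 and 82.1 CPM), loop of Henle (64.2 and 63.7 CPM), distal or connecting tubule (64.6 and 53.3 CPM), collecting duct (46 and 62.5 CPM) and nephron progenitors (46.6 and 46 CPM) formed a middle group whose neighbours overlapped. Proximal tubule held 31 and 29.6 CPM. These 8 classes were called higher, with log2 differences from 1.11 in proximal tubule to 3.85 ± 0.12 SE, adjusted p = 3.0e-19 in podocytes. All 3 stroma classes, pericytes or mesangial cells, endothelium and macrophages were called lower, none above 5.77 CPM, and endothelium was lowest with 0.951 and 1.75 CPM (-3.82 ± 0.37 SE, adjusted p = 3.1e-09). Bmp7 was present in 37.9% and 50.8% of thinned podocytes and 0.292% and 0.675% of endothelial cells. With free RNA subtracted, 1 class was left with no Bmp7 count and 5 of the 6 lower calls were lost (edgeR's adjusted p of 1).

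**Figure D1:**
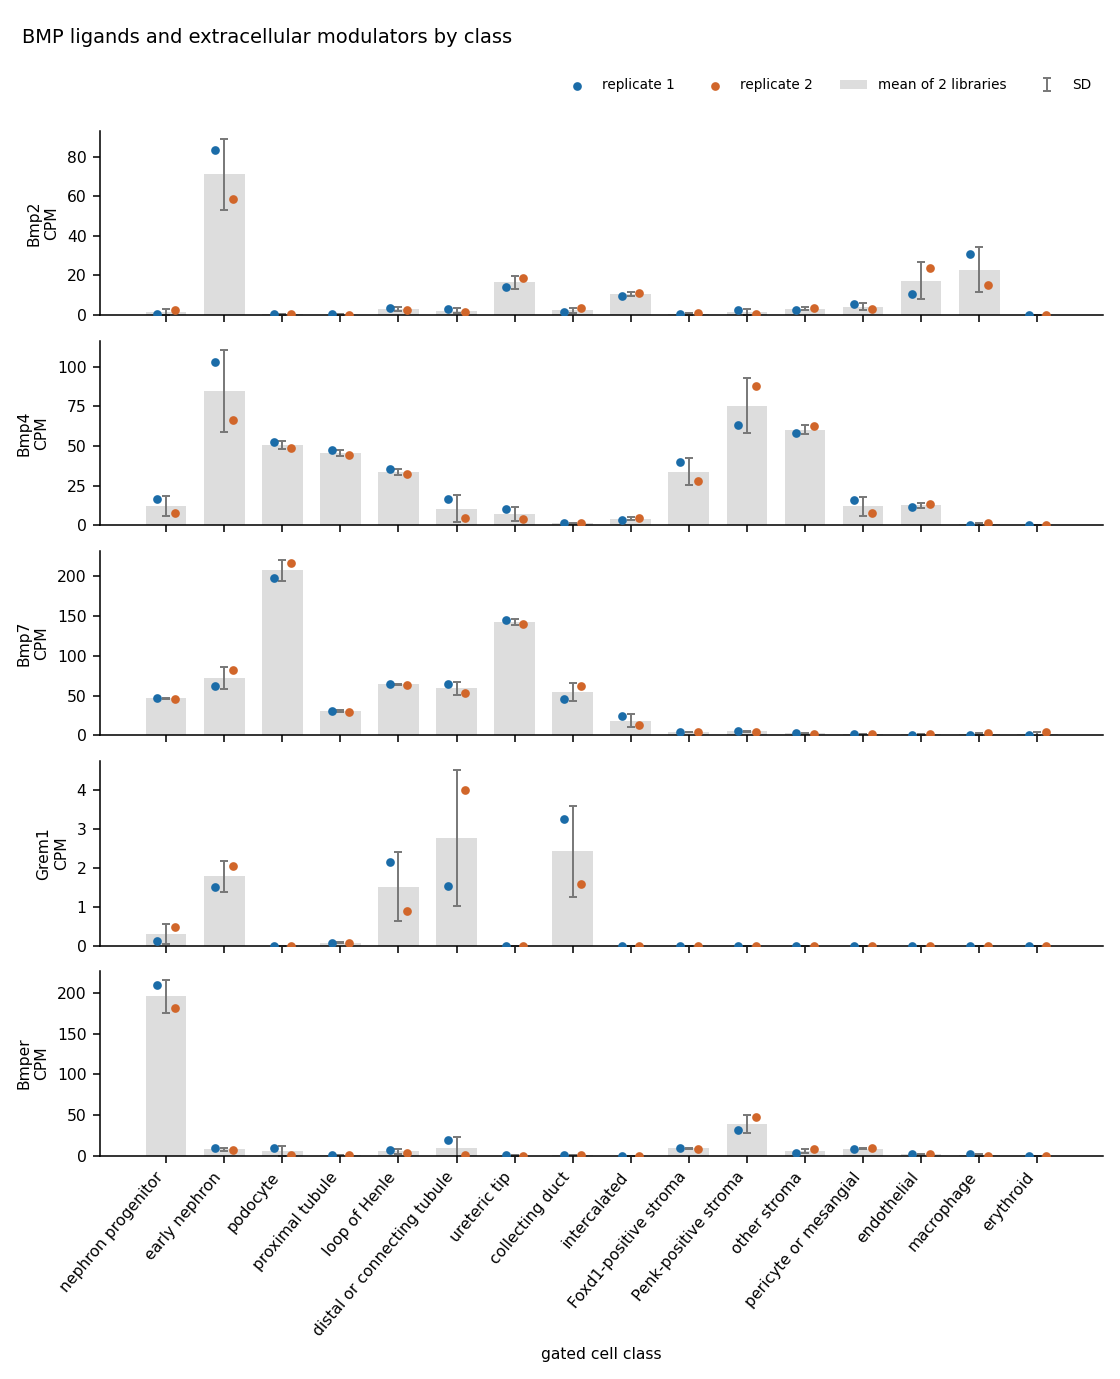
Levels of the 3 BMP ligands and 2 BMP-binding proteins, in CPM (vertical axes, one scale per gene), in the 16 gated classes; points are the 2 libraries, bars their mean and error bars the SD. Early nephron stands out for Bmp2 (83.6 and 58.5 CPM), podocytes for Bmp7 (198 and 216 CPM) and nephron progenitors for Bmper (209.6 and 182 CPM), while Grem1 stays below 5 CPM.

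Grem1 (chr2:113746164-113758646, minus strand), the gremlin gene, was scarce: 97 and 96 UMIs in all cells. It was found in distal or connecting tubule (1.54 and 4.01 CPM), collecting duct (3.26 and 1.6 CPM), early nephron (1.5 and 2.06 CPM) and loop of Henle (2.14 and 0.897 CPM), whose libraries overlapped. Nephron progenitors held 2 and 7 UMIs and proximal tubule 1 and 1. The 10 remaining classes had no Grem1 UMI in either library, among them all 3 stroma classes, podocytes and ureteric tip. For Foxd1-positive stroma in replicate 2 a count of 0 allows up to 0.45 CPM (3 counts), and for ureteric tip up to 1.11 CPM. Those 4 classes were called higher (adjusted p from 0.00011 to 0.00032); no fold is given against classes at 0. DESeq2's Wald test called none of the 4 (adjusted p 0.11 to 0.24).

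Bmper (chr9:23223076-23485200, plus strand), whose secreted product binds BMPs and can block or aid them, was highest in nephron progenitors, the Six2 and Cited1 class. They held 209.6 and 182 CPM, from 3925 and 2626 UMIs. All cells held 7753 and 5306 Bmper UMIs, of which 4431 and 3001 were in the 16 tested classes. Penk-positive stroma was next with 31.7 and 47 CPM, below progenitors and above the other classes in both libraries. Distal or connecting tubule followed with 19 and 0.472 CPM, a value that the libraries did not share: 37 and 2 UMIs, in 5.08% and 1.49% of its cells before thinning. After thinning, 1 of 59 and 0 of 134 of its cells held a Bmper UMI. In the other 13 classes Bmper stayed at or below 10.2 CPM, and it was not counted in intercalated or erythroid cells. A Bmper UMI was present in 28.7% (95% interval 25.2 to 32.5) and 28.8% (24.1 to 33.9) of thinned progenitors. In early nephron cells the share was 2.26% and 0.99%. Bmper was called higher in progenitors (adjusted p = 4.4e-15), Penk-positive stroma (adjusted p = 1.0e-07) and Foxd1-positive stroma (adjusted p = 0.032), with no fold given because 2 classes were at 0. The call in Foxd1-positive stroma (9.19 and 8.84 CPM) was lost in 4 alternatives.

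Bmpr1a (chr14:34410734-34503341, minus strand), which encodes the type I receptor ALK3, was found broadly. Podocytes held the most, 294 and 283 CPM. Collecting duct, nephron progenitors, ureteric tip, all 3 stroma classes, pericytes or mesangial cells and early nephron lay between 137 and 223 CPM, each overlapping its neighbour in the order. Proximal tubule had the lowest mean of the epithelial classes, at 80.4 and 74.6 CPM. Endothelium held 3.98 and 3.67 CPM and macrophages 16.6 and 13.8 CPM, both called lower (log2 difference -4.91 ± 0.21 SE, adjusted p = 2.1e-16 in endothelium). Podocytes (1.69 ± 0.11 SE, adjusted p = 2.8e-12) led the 9 classes called higher. In thinned cells Bmpr1a was present in 50.8% and 54.1% of podocytes and 0.73% and 0.675% of endothelial cells. With free RNA subtracted, 1 class was left with no Bmpr1a count and the lower call in macrophages was lost (edgeR's adjusted p of 1). Gm17110 overlaps Bmpr1a on the opposite strand, with 38 UMIs.

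Bmpr1b (chr3:141837136-142169425, minus strand), the other type I receptor gene among the 10, was highest in the ureteric lineage. Ureteric tip held 681 and 762 CPM, collecting duct 420.0 and 413 CPM and intercalated cells 343 and 156 CPM. The first 2 were apart from each other and from every other class. Penk-positive stroma (137 and 255 CPM), early nephron (178 and 143 CPM) and distal or connecting tubule (174 and 96.1 CPM) came next and overlapped. Podocytes, highest for Bmpr1a, held 8.75 and 6.3 CPM of Bmpr1b, and macrophages 1.51 and 1.25 CPM. The gene was called higher in 8 classes, led by tip (log2 difference 3.75 ± 0.18 SE, adjusted p = 7.4e-15) and collecting duct (2.99 ± 0.19 SE, adjusted p = 1.1e-12), and lower in 5, among them podocytes (-3.13 ± 0.43 SE, adjusted p = 1.4e-06), loop of Henle (-1.48 ± 0.32 SE, adjusted p = 0.00048) and proximal tubule (-1.14 ± 0.30 SE, adjusted p = 0.0025). Bmpr1b was present in 69.4% and 81.2% of thinned tip cells, 62.2% and 61.2% of collecting duct cells and 4.24% and 1.64% of podocytes. The higher calls in nephron progenitors and in pericytes or mesangial cells, log2 0.64 and 0.96, were lost when doublets were kept. Over the alternatives these 2 differences were as low as log2 0.15 and 0.44. The mean they are held against includes macrophages, at 1.51 and 1.25 CPM. With free RNA subtracted the lower calls but that of endothelium were lost at an adjusted p of 1.

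**Figure D2:**
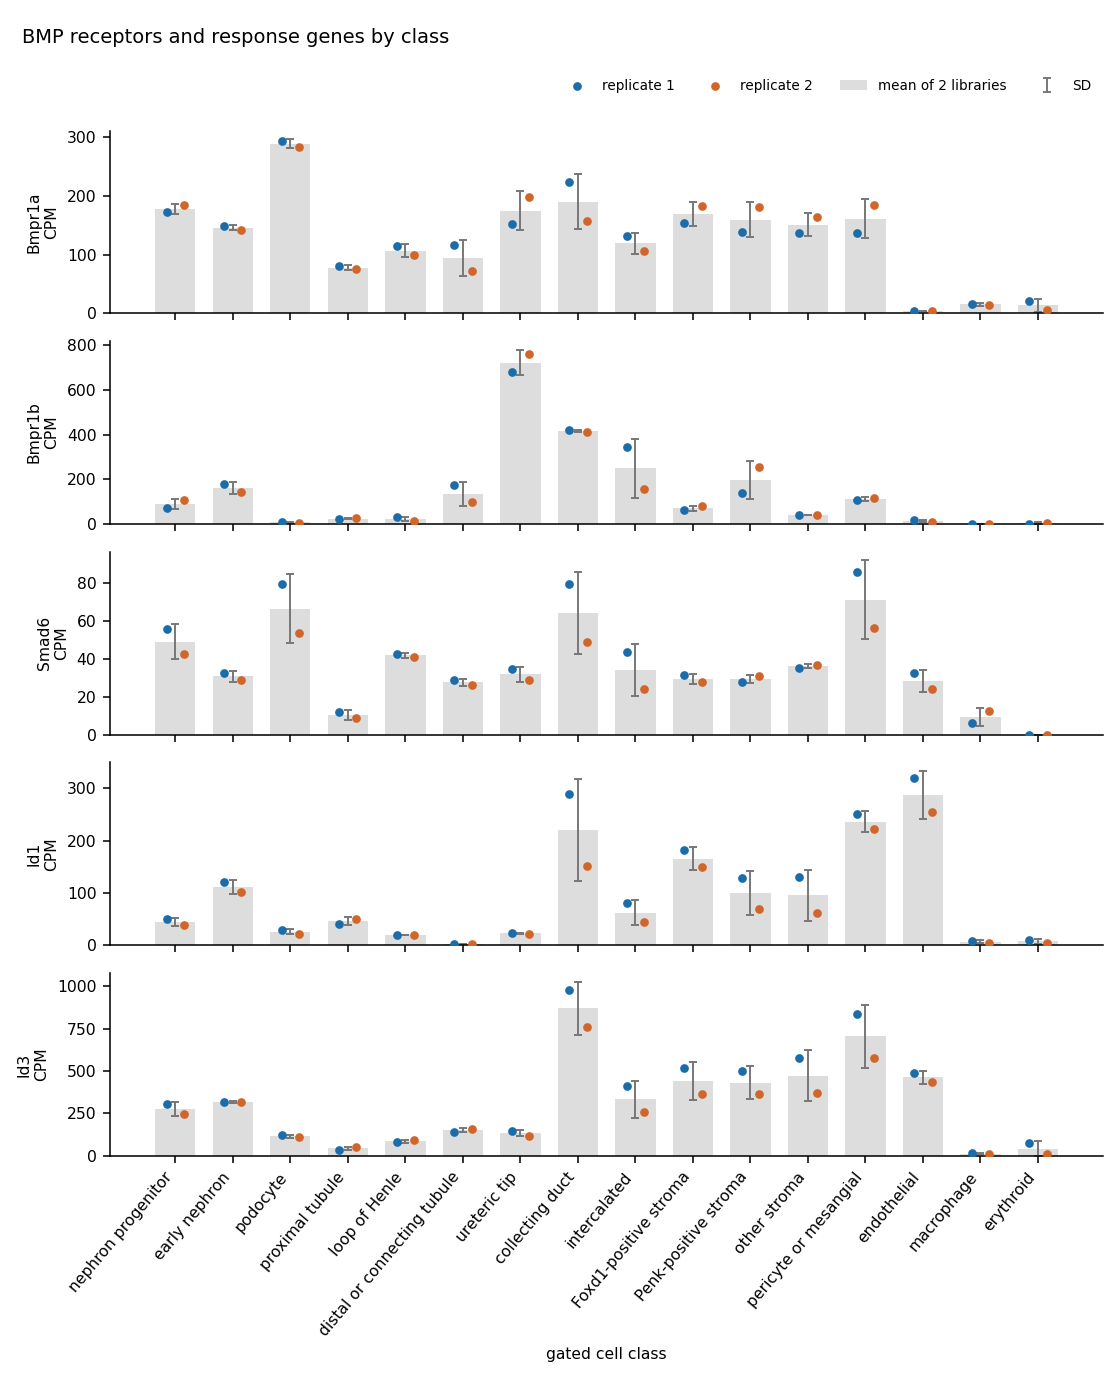
Levels of the 2 type I receptor genes, Smad6, Id1 and Id3, in CPM (vertical axes, one scale per gene), in the 16 gated classes; points are the 2 libraries, bars their mean and error bars the SD. Bmpr1a is near 0 in endothelium (3.98 and 3.67 CPM) where Id1 is highest (320.0 and 255 CPM), and Bmpr1b peaks in ureteric tip (681 and 762 CPM).

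Smad6 (chr9:63953076-64022059, minus strand), which encodes an inhibitor of BMP receptor signalling, varied less. It reached 85.5 and 56.1 CPM in pericytes or mesangial cells, 79 and 53.4 CPM in podocytes, 79.2 and 48.9 CPM in collecting duct and 55.4 and 42.3 CPM in nephron progenitors, and the neighbours in this order overlapped. Proximal tubule held 12 and 8.47 CPM, below every other epithelial class. The 4 leading classes and loop of Henle (42.5 and 40.8 CPM) were called higher, with log2 differences from 0.45 in loop of Henle to 1.15 ± 0.15 SE, adjusted p = 2.0e-06 in pericytes or mesangial cells. Proximal tubule (-1.59 ± 0.16 SE, adjusted p = 1.2e-08) and macrophages (-2.06 ± 0.30 SE, adjusted p = 4.9e-06) were called lower. It was present in 16.4% and 13.1% of thinned podocytes and 2.01% and 3.11% of proximal tubule cells.

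The start regions of Smad6 and Id3, both known BMP response genes, are printed because 1 of them holds a Smad box at its start. Each sequence runs from 120 bases before to 25 bases after the transcription start in RefSeq (GRCm38.p6), 5′ to 3′, with the palindromic Smad box GTCTAGAC in capitals. The Smad6 window is chr9:64022035-64022179 on the minus strand and the Id3 window chr4:136143702-136143846 on the plus strand.
Smad6: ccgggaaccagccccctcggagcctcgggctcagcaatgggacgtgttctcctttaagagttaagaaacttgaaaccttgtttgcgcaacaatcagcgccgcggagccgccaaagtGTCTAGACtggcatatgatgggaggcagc
Id3: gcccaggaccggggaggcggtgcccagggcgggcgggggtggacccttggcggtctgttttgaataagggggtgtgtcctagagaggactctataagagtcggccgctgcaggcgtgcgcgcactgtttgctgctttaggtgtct
The box in Smad6 begins at position -4 from the start. Searched on both strands over promoters from 250 bases before to 50 after the start, it occurs in 70 of 32851 (0.213%), and Smad6 was the only one of the 7 matched genes to hold it. The shorter GC-rich box GGCGCC, which overlaps no Smad box in the matched promoters, is in 11.9% of promoters, including those of Grem1, at position -78, and Bmpr1a, at position -198. Id3 holds neither in this window. Promoters of Bmp2, Bmp7 and Id1 were not matched.

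Id1 (chr2:152736251-152737410, plus strand) was highest in vessels, mural cells, collecting duct and stroma. Endothelium held 320.0 and 255 CPM, pericytes or mesangial cells 251 and 222 CPM, collecting duct 290.0 and 152 CPM and Foxd1-positive stroma 181 and 150.3 CPM. Endothelium lay above pericytes in both libraries but overlapped collecting duct, so its place above collecting duct is not resolved. Pericytes, collecting duct and Foxd1-positive stroma overlapped as neighbours. Early nephron came next with 121 and 102 CPM. Distal or connecting tubule was at the other end with 2.56 and 1.89 CPM, below macrophages (8.29 and 5.02 CPM). Id1 was called higher in 7 classes, led by endothelium (log2 difference 2.71 ± 0.13 SE, adjusted p = 2.3e-15), pericytes or mesangial cells (2.33 ± 0.15 SE, adjusted p = 2.5e-12) and collecting duct (2.18 ± 0.14 SE, adjusted p = 1.4e-12). It was called lower in 5: distal or connecting tubule (-4.70 ± 0.37 SE, adjusted p = 7.0e-11), macrophages, loop of Henle, ureteric tip and podocytes. Id1 was present in 44.4% and 39.1% of thinned endothelial cells and 4.55% and 4.18% of loop of Henle cells. The summed stress genes were at 513 and 455 CPM in endothelium and at 442 and 159.8 CPM in distal or connecting tubule, and their part in the Id1 levels was not tested. With free RNA subtracted, 4 of the 5 lower calls were lost at an adjusted p of 1, all but that of distal or connecting tubule.

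Id3 (chr4:136143497-136145755, plus strand) was highest in collecting duct, 981 and 758 CPM, and in pericytes or mesangial cells, 837 and 574 CPM, which overlapped. The stroma classes, endothelium and intercalated cells followed, from 257 to 579 CPM, with no resolved order. Proximal tubule held 36.9 and 51.4 CPM and macrophages 14.3 and 8.78 CPM. Collecting duct (2.15 ± 0.13 SE, adjusted p = 8.6e-13) led 9 classes called higher, and macrophages (-4.39 ± 0.31 SE, adjusted p = 1.1e-11) and proximal tubule (-2.17 ± 0.20 SE, adjusted p = 9.6e-10) the 5 called lower. The call in nephron progenitors (log2 0.41) was lost in 5 alternatives. Without the erythroid and macrophage classes the higher calls in early nephron and intercalated cells were lost as well (edgeR's adjusted p of 0.199 and 0.085), and with free RNA subtracted the lower call in ureteric tip (0.103). Id3 was present in 81.9% and 77.7% of thinned collecting duct cells and 5.28% and 12.1% of proximal tubule cells.

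Within classes, Id1 and Id3 UMIs tended to be found in the same thinned cells. In each of the 19 sets of 1 class in 1 library with at least 15 cells holding each gene, from 10 classes, the share of cells with Id3 was higher among cells with Id1. In endothelium it was 78% against 51.7% in replicate 1, and 74.1% against 54.6% in replicate 2. In nephron progenitors it was 80.5% against 43.8%, and 71% against 42.5%. Smad6 was more frequent among cells with Id3 in 10 of 17 sets, with no interval computed, so a direction that depends on class is not resolved. It was more frequent in both libraries of endothelium (10.1% against 4.38% in replicate 1 and 7.59% against 1.79% in replicate 2), nephron progenitors, Foxd1-positive stroma and pericytes or mesangial cells. It was less frequent in both libraries of podocytes (14.3% against 16.8% and 8.11% against 14.4%), loop of Henle and Penk-positive stroma. Cells holding both genes were few there: 8 and 3 in podocytes, 3 and 4 in loop of Henle and 10 and 11 in Penk-positive stroma. Bmpr1a was more frequent among cells with Bmp7 in 5 of 12. These shares are descriptions over cells that share a library.

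Neighbouring classes were then compared directly. From nephron progenitors to early nephron, 8 of the 10 genes differed, 6 higher and 2 lower, against 30.8% of all genes. Bmp2 (0.587 and 2.49 CPM in progenitors, 83.6 and 58.5 CPM in early nephron) was higher by log2 5.56 ± 0.46 SE, adjusted p = 1.2e-09, and Bmp4 (16.6 and 7.54 CPM in progenitors) by 2.76 ± 0.30 SE, adjusted p = 8.2e-08. Bmper went the other way (-4.68 ± 0.46 SE, adjusted p = 2.5e-08), from 209.6 and 182 to 9.4 and 6.57 CPM. Thus the ligands Bmp2 and Bmp4 and the modulator Bmper were highest on opposite sides of this step. Id1 was higher in early nephron (1.28 ± 0.21 SE, adjusted p = 3.6e-05) and Smad6 lower (-0.72 ± 0.18 SE, adjusted p = 0.0039). Bmp7 differed by 0.58 ± 0.18 SE, adjusted p = 0.013 and Bmpr1b by 0.79 ± 0.30 SE, adjusted p = 0.046, and Grem1 had 2 and 7 UMIs in progenitors and 19 and 16 in early nephron. Bmpr1a (-0.34 ± 0.17 SE, adjusted p = 0.14) and Id3 (0.16 ± 0.22 SE, adjusted p = 0.63) did not pass. Bmp7, Bmpr1b and Grem1 lost their calls with free RNA subtracted, Bmpr1b and Grem1 also with DESeq2.

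From early nephron to podocytes, 9 of 10 differed, where 56% of all genes did. Bmp2 was lower (-7.08 ± 0.65 SE, adjusted p = 2.4e-09), with 4 and 1 UMIs left in podocytes, and so was Bmpr1b (-4.32 ± 0.39 SE, adjusted p = 9.8e-10). Bmp7 (1.58 ± 0.18 SE, adjusted p = 4.3e-08), Bmpr1a (1.04 ± 0.17 SE, adjusted p = 1.2e-05) and Smad6 (1.17 ± 0.19 SE, adjusted p = 1.3e-05) were higher. Id1 (-2.08 ± 0.23 SE, adjusted p = 3.8e-08) and Id3 (-1.41 ± 0.23 SE, adjusted p = 1.0e-05) were lower, opposite to Smad6. Bmp4 differed by -0.67 ± 0.28 SE, adjusted p = 0.049, a call lost in 5 alternatives. Grem1, with 19 and 16 UMIs in early nephron and none in podocytes, was called lower, but not by DESeq2. Bmper did not pass (-0.30 ± 0.56 SE, adjusted p = 0.68).

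From ureteric tip to collecting duct, 7 of 10 differed, where 34.2% of all genes did. Id1 (23.8 and 21.9 CPM in tip, 290.0 and 152 CPM in collecting duct) was higher in collecting duct by log2 3.31 ± 0.25 SE, adjusted p = 3.8e-10. Id3 (146 and 119.5 CPM in tip, 981 and 758 CPM in collecting duct) was higher by 2.79 ± 0.24 SE, adjusted p = 2.4e-09 and Smad6 by 1.07 ± 0.21 SE, adjusted p = 0.00023. The 3 ligands were lower: Bmp2 (-2.70 ± 0.58 SE, adjusted p = 0.00071), Bmp4 (-2.35 ± 0.64 SE, adjusted p = 0.0057) and Bmp7 (-1.31 ± 0.18 SE, adjusted p = 4.4e-06). Id1, Id3 and Smad6 thus lay opposite to the 3 ligands. Of the other Id genes, Id2 was higher in collecting duct (2.13 ± 0.31 SE, adjusted p = 8.2e-06) and Id4 did not pass (-0.54 ± 0.21 SE, adjusted p = 0.053). Neither receptor gene passed, Bmpr1b at -0.71 ± 0.30 SE, adjusted p = 0.065 and Bmpr1a at 0.20 ± 0.17 SE, adjusted p = 0.41. Grem1, with 18 and 11 UMIs in collecting duct and none in tip, was called higher in collecting duct, a call lost with DESeq2 or with free RNA subtracted.

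Between Penk-positive and Foxd1-positive stroma 3.58% of all genes differed, and 4 of the 10 BMP genes did. Bmp4 (1.19 ± 0.30 SE, adjusted p = 0.024), Bmper (2.11 ± 0.50 SE, adjusted p = 0.015) and Bmpr1b (1.45 ± 0.31 SE, adjusted p = 0.0063) were higher in Penk-positive stroma and Id1 lower (-0.79 ± 0.22 SE, adjusted p = 0.037). Each differed the same way in both libraries. The split rests on 1 UMI of Foxd1 or Penk per cell, at median depths of 10981 and 15299 UMIs in Penk-positive and 12061 and 16602 UMIs in Foxd1-positive stroma. The count fell to 1 with DESeq2, without the library block or with doublets kept, and to 0 with free RNA subtracted, where 179 of 16484 genes were called and 4 of the 10 had an unadjusted p under 0.05 in edgeR. Between pericytes or mesangial cells and Foxd1-positive stroma, 2 of 10 differed, against 15% of all genes: Smad6 was higher in pericytes (1.22 ± 0.21 SE, adjusted p = 0.00015) and Bmp4 lower (-1.52 ± 0.41 SE, adjusted p = 0.012). Free RNA was estimated at 20.3% and 0.64% in pericytes or mesangial cells and 3.03% and 1.19% in Foxd1-positive stroma, and with it subtracted the Bmp4 call was lost. In replicate 1 the 5 loop of Henle markers summed to 20.4 CPM in pericytes or mesangial cells, less than the 20.3% estimate would bring. Pericytes also held 1367 and 1621 CPM of the 8 stroma markers, and Foxd1-positive stroma 7742 and 6787 CPM.

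**Figure D3:**
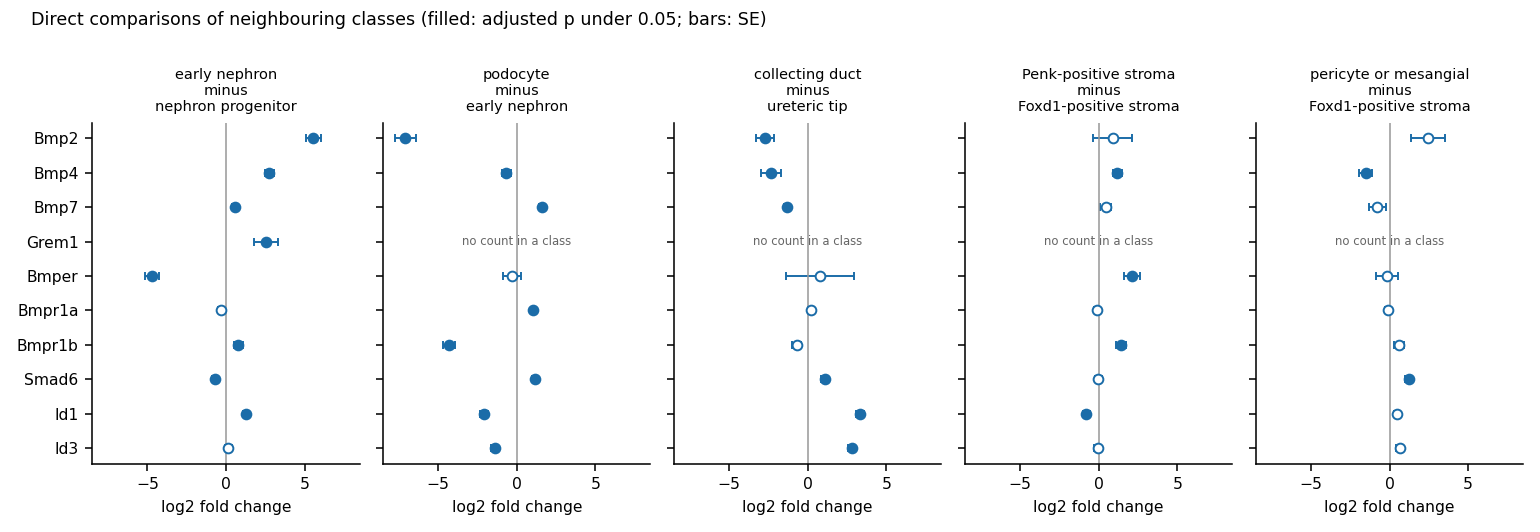
Log2 fold changes (horizontal axes) of the 10 genes in the 5 direct comparisons, with SE bars; filled points passed an adjusted p of 0.05, open points did not, and text replaces a point where 1 of the classes had no count. Bmp2 and Bmper lie on opposite sides in early nephron minus nephron progenitor (log2 5.56 and -4.68), and Id1 and Id3 oppose the ligands in collecting duct minus ureteric tip.

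The 48 other genes of the pathway were taken from a fixed list, and 39 passed the filter on low counts. They were called in 285 of 624 class tests, 203 higher and 82 lower. That is 45.7% of their tests, against 36.6% over all genes. Other ligands (6 of 11 tested) were called higher 25 and lower 9 times in 96 tests. Other antagonists and modulators (11 of 13 tested) were called 54 and 14 times in 176 tests, other receptors and co-receptors (9 of 10 tested) 56 and 24 times in 144, Smads and intracellular regulators (9 of 9 tested) 47 and 24 times in 144, and other response genes (4 of 5 tested) 21 and 11 times in 64. The shares called were 35.4% for the ligands and 38.6% for the antagonists and modulators, both near the share of all genes, 55.6% for the receptors, 49.3% for the Smads and 50% for the response genes. The median log2 difference of the 39 was 1.13 in Penk-positive stroma, 0.82 in other stroma, 0.78 in Foxd1-positive stroma and -2.69 in macrophages, against 0.18, 0.15, 0.18 and -0.11 for all genes. Below, called genes with the largest differences in each class are named with their levels, beside the number of the 39 called and the share of all genes called in that class. Levels are given in place of folds, since many of these genes had a class with no count.

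In nephron progenitors 13 were higher and 8 lower (46% of all genes called). Sost, the sclerostin gene, was high (8.12 and 8.16 CPM), and Acvrl1, a type I receptor gene of endothelium, was low (0.16 and 0.484 CPM). In early nephron 12 were higher and 4 lower (44.5%), with the noggin gene Nog at 6 and 11 CPM and the co-receptor gene Eng at 0.632 and 0.644 CPM. Nog was called higher in 5 of the 16 classes, early nephron among them, and whether cells with Bmp2 also held Nog was not tested. In podocytes 12 were higher and 10 lower (41.5%): the ligand gene Gdf5 reached 6.09 and 11.3 CPM and the antagonist gene Nbl1 77.9 and 122 CPM. In proximal tubule 7 were higher and 9 lower (47.7%), with the antagonist gene Sostdc1 at 123 and 68.5 CPM and Eng at 0.836 and 1.62 CPM.

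Sostdc1, whose secreted product binds BMPs and also acts on Wnt signalling, reached 1126 and 942 CPM in loop of Henle, where 13 were higher and 6 lower (39.7%), and 854 and 909 CPM in distal or connecting tubule, where 7 were higher and 8 lower (41.4%). Loop of Henle also held the ligand gene Bmp3 (79.2 and 50.1 CPM), and distal or connecting tubule 0 and 1 UMIs of Acvrl1. In ureteric tip 9 were higher and 4 lower (37.3%), with the antagonist gene Chrdl1 at 7.72 and 5.57 CPM and Id4 at 213 and 176 CPM, in a class where Id1 was low. In collecting duct 13 were higher and 1 lower (36.4%), with the ligand gene Bmp6 at 0.906 and 0.58 CPM. In intercalated cells 10 were higher and 6 lower (32.5%), with the ligand gene Bmp8a at 11.6 and 8.85 CPM; Msx1 was called there on 4 and 0 UMIs.

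In Foxd1-positive stroma 25 were higher and 1 lower (37.2%), led by Fst, the follistatin gene (18.9 and 10.0 CPM), and the ligand gene Bmp5 (9.44 and 9.89 CPM). In Penk-positive stroma 24 were higher and 0 lower (34.6%) and in other stroma 26 were higher and 1 lower (29.1%). Both were led by the ligand gene Gdf10 (19.2 and 6.15 CPM, and 9.06 and 5.49 CPM). In pericytes or mesangial cells 13 were higher and 3 lower (29.5%), with Gdf10 at 10.8 and 7.45 CPM and Bmp5 at 6.99 and 3.44 CPM. In endothelium 17 were higher and 6 lower (42.7%): Eng reached 295 and 361 CPM and the homeobox gene Msx1 11.5 and 9.8 CPM, in the class with least Bmpr1a. In macrophages 2 were higher and 12 lower (38.1%), with Fstl1 at 13.6 and 15.1 CPM and Id4 at 3 and 0 UMIs, and in the erythroid class 0 were higher and 3 lower (7.89%), with Acvr1 not counted and Bmpr2 at 0 and 1 UMIs.

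**Figure D4:**
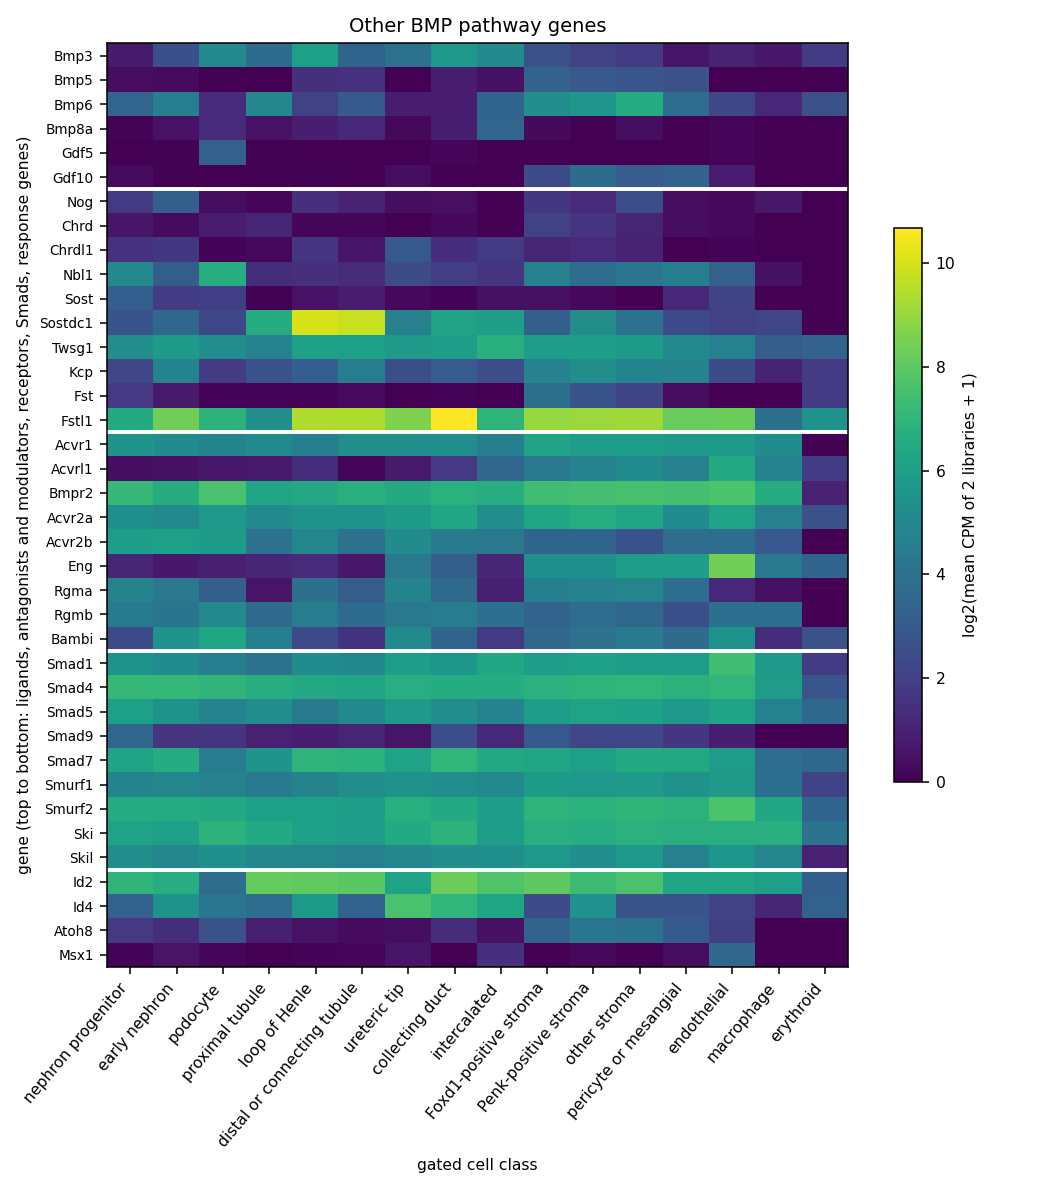
Levels of 38 of the 39 other BMP pathway genes that passed the filter (rows, grouped by role) in the 16 gated classes (columns), as log2 of mean CPM of 2 libraries plus 1 (colour). Sostdc1 is brightest in loop of Henle (1126 and 942 CPM) and distal or connecting tubule, and Eng in endothelium (295 and 361 CPM).

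Across the 32 class sums genes whose level on the log2(CPM + 1) scale ran closest to each of the 10 were picked by Pearson correlation. These sums share libraries and depth, and r is given as a description. Bmp2 ran closest to Reep4, Jpt1 and Cdh23 (r 0.77 to 0.72), Bmp4 to Gm4117, Gm15222 and Rai14 (r 0.83 to 0.82), and Bmp7 to Celsr2, Zfp612 and Rassf10 (r 0.94 to 0.92). Gm15222 is one of the transcripts overlapping Bmp4. Grem1 ran closest to Gm27239, Myo3a and Spag6l (r 0.79 to 0.78) and Bmper to Has2os, Has2 and Saa2 (r 0.85 to 0.83). Bmpr1a ran closest to Fat1, Tead3 and Wdr35 (r 0.91 to 0.87) and Bmpr1b to Efna4, Src and Zfp454 (r 0.88 to 0.85). For Smad6 they were Cldnd1, Ro60 and Trpm4 (r 0.94 to 0.94), for Id1 Zfp275, Itm2a and Rnf217 (r 0.84 to 0.80) and for Id3 Hmgn3 and Cnn3 (r 0.89 and 0.88). Among the 10 genes, Id1 and Id3 were most alike (r 0.79), Id3 and Smad6 had r 0.66, Id1 and Bmp7 -0.21, and Bmp2 and Bmp4 -0.05.

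Over 15 classes, without the erythroid class, the libraries' levels correlated with Pearson's r from 0.84 for Bmper to 0.98 for Bmp7, as a description. The median absolute log2 difference between libraries, on log2(CPM + 1), ranged from 0.25 for Bmpr1a to 0.71 for Bmp2, leaving aside Grem1, at 0 in most classes. The largest single gap was that of Bmper in distal or connecting tubule, 3.76. Classes outside the tests are given as values. Urothelium (14 and 8 cells) held 804 and 659 CPM of Id1, above every tested class. Smooth muscle or renin cells (46 and 19 cells) held 60.7 and 68.2 CPM of Bmp4 and 1 and 0 UMIs of Bmp7.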

How the data were processed

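Single-cell RNA libraries of P0 kidney were made on the Chromium system and sequenced from the 3′ end of the cDNA, per the labels' protocols. The deposited values are raw UMI counts per gene and barcode, over all barcodes, with no normalization by the authors. The file headers name Cell Ranger 4's matrix format, while the submitters' processing notes list Cell Ranger 6.0.1 and the genome build mm10. The matrices held 2761081 and 2545815 barcodes with 200331687 and 173166168 UMIs, of which 73.1% and 74.5% were in the cells kept.

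Scrublet scores (scanpy 1.11.5) marked the top 0.8% per 1000 cells as doublets. Each marker list was scored per cell as the mean log-scaled count over its markers, divided by the mean of its 20 highest cells. A cell took the type with the highest ratio if that was at least 30% with at least 3 markers detected and the next type reached at most 60% of it. Stroma cells were split by at least 1 UMI of Foxd1, then of Penk. 922 and 595 cells scored too low, 417 and 424 had a second type close by, and both stayed ungated.

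Counts were summed per library and class (32 sums, 15 residual degrees of freedom) and fitted with edgeR 4.0.16 (quasi-likelihood, TMM, filterByExpr, class means plus library; limma 3.58.1, R 4.3.3). The library block was part of the main fit, because class sums of 1 library come from the same cells' preparation. Gate genes were left out of the adjustment. DESeq2 1.42.0 served as an alternative. The fit was tried on simulated counts before use. These had the same mean profile in every class, apart from well-counted genes changed in podocytes, and no library effect. They therefore do not cover genes with a class at 0 or scarce genes such as Grem1. Shares of cells used cells thinned to 3000 UMIs, with exact binomial 95% intervals; intervals and floors (3 counts) cover counting error only. Python 3.11.15, anndata 0.12.19, numpy 2.4.6, pandas 2.3.3, scipy 1.17.1 and matplotlib 3.10.9 were used.

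The 10 genes, the pathway and marker lists and the rules were chosen with earlier results of these data known. Named beside the 10 genes are, for each class, the 2 called pathway genes with the largest absolute log2 difference among those with at least 10 counts in each library in some class, and, for each of the 10, the 3 genes with the highest correlation; some named by these rules are not reported here. Promoter sequences are from RefSeq (GRCm38.p6), matched by symbol for 7 of 10 genes, and gene positions from GENCODE M21. Alternatives changed the UMI minimum, doublet removal, gate margin, scaling, test, filter, library block, free RNA, the samples and the classes in the fit.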

Additional observations from a re-analysis of the deposited data

How the results depend on the processing

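In the alternatives that kept the reported number of tests, 77 to 95 of 160 class tests of the 10 genes were called (88 as reported) and 255 to 327 of 624 of the other pathway genes (285 as reported). Other alternatives changed that number too: 99 of 150 were called without the erythroid class, where 44.8% of all tests were called in place of 36.6%, 91 of 140 without the erythroid and macrophage classes, 94 of 150 at 10000 or more UMIs, 85 of 144 with a stricter gate and 90 of 170 with doublets kept. Over all alternatives run, no value changed sign. Of 118 called values, 81 kept their call in every alternative that tested them and 37 lost it in at least 1. Subtracting free RNA lost most, 27 calls, of which 14 were lower calls whose adjusted p went to 1. It raised the number of genes with a class at 0 from 7572 to 8465, and among the 10 from 5 to 9, and such genes cannot be called lower in the classes that keep counts. The share subtracted rests on haemoglobin and exceeded what tubule markers allow in endothelium and, in replicate 1, in pericytes or mesangial cells. The subtraction also left 5 called genes between early nephron and nephron progenitor (8 as reported), 0 between Penk-positive and Foxd1-positive stroma (4 as reported; edgeR, 4 at an unadjusted p under 0.05, and DESeq2 on the counts as deposited called 1) and 1 between pericytes or mesangial cells and Foxd1-positive stroma (2 as reported). The Penk comparison fell to 1 with doublets kept, with DESeq2's Wald test and without the library block. The pericyte comparison rose to 5 with no filter on low counts and to 5 with only the 2 classes fitted. The causes of these changes were not tested. The 2 libraries share no animal label, and the library number entered as a block: with no replicate block the calls of the 10 genes were 86 in place of 88, with 7, 8, 7, 1 and 2 in the 5 direct comparisons in the order given. Leaving out a library leaves no residual degrees of freedom and so no test. A difference was marked as moved where it changed by at least 1 SD of the 2 single-library values. Without replicate 1 this held for 26 of the 118 differences, and without replicate 2 for 41. Because that SD comes from the same 2 values, these counts do not measure how stable the differences are. With free RNA subtracted the level of Bmpr1a in podocytes was 303 CPM and that of Id1 in endothelium 349 CPM. Unthinned shares of cells with a UMI were higher for all 10 genes. Depth limits Grem1 most, with under 100 UMIs in each library.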
